A study of Mus musculus with 9 samples.

Results

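The 10 genes described are the D-type cyclins Ccnd1, Ccnd2 and Ccnd3, the CDK inhibitors Cdkn1a, Cdkn1b, Cdkn2a, Cdkn2b, Cdkn2c and Cdkn2d, and the retinoblastoma gene Rb1. They were taken by symbol from the deposited count table, and each of the 10 symbols was found once among its 54532 genes. D-type cyclins bind the kinases CDK4 and CDK6 in G1 and the active kinases phosphorylate the RB protein, which then releases E2F transcription factors and lets S phase genes be transcribed. The INK4 inhibitors (p16Ink4a from Cdkn2a, p15 from Cdkn2b, p18 from Cdkn2c and p19Ink4d from Cdkn2d) bind CDK4 and CDK6 themselves, whereas the CIP/KIP inhibitors (p21 from Cdkn1a and p27 from Cdkn1b) act on a wider range of cyclin-CDK complexes. Cell proliferation in the facial prominences accompanies their outgrowth and fusion.

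RNA was sequenced from lambdoidal junction tissue, the seam at which the maxillary prominence joins the nasal prominences on either side, of C57BL/6J mouse embryos for which no genetic change or treatment is named. There were 3 libraries at E10.5 (35–39 somites), 3 at E11.5 (45–47 somites) and 3 at E12.5 (48–51 somites), each from a pool of 17–18 embryos, with 16581009–20836804 counts per library. The comparisons ask which genes changed over the fusion period. Levels are given as CPM, counts scaled to TMM-adjusted library sizes, which compare libraries, or as the deposited FPKM, which is also divided by gene length and so allows genes to be compared. A gene is said to rise or fall where the adjusted p-value of edgeR's quasi-likelihood test, adjusted by Benjamini-Hochberg over all genes tested, did not exceed 0.05, and it is called a DEG where the log2 fold change was also at least 1 in size. The tissue is a mixture of cell types, so fewer cells that express a gene and less RNA per cell cannot be told apart. Facial mesenchyme markers were present in every library, with summed levels of 993–1670, 2280–2430 and 2380–2680 CPM in order of stage. One library stood apart, replicate 3 at E10.5, in which the mesenchyme markers summed to 993 CPM against 1667 and 1646 CPM in replicates 1 and 2, and the endothelium markers to 105 CPM against 338 and 328 CPM. Its gene-wise deviations from the stage mean also ran against GC content (Spearman rho = -0.546 across genes) where those of replicates 1 and 2 ran with it (0.438 and 0.469). Deviations from a stage mean balance within the stage, so the signs of replicates 1 and 2 are not separate from that of replicate 3.

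Among the D-type cyclins Ccnd1 alone passed the test in these fits, and inhibitors of both families changed in different patterns. Ccnd1 fell at both steps and was 2.57-fold lower at E12.5 than at E10.5 (328 ± 18.6 against 128 ± 30.0 CPM, SD, n = 3), while Ccnd2, Ccnd3 and Rb1 passed the test in no pair of stages. Cdkn2c rose at both steps and was 3.91-fold higher at E12.5 (3.27 ± 0.663 against 12.8 ± 1.73 CPM). Cdkn2b rose from E10.5 to E11.5, and Cdkn1a fell to E11.5 and rose again to E12.5. Of the 9 genes of the group that passed the filter on low counts, 4 passed the test in E11.5 vs. E10.5, of which 2 rose and 2 fell, beside 11.8% of all genes tested. The second step gave 3 of 9, of which 2 rose and 1 fell, beside 12.2% of all genes. In E12.5 vs. E10.5 it was 2 of 8, with 1 rise and 1 fall, beside 24.6%. The DEGs among them numbered 1, 2 and 2 in the same order, against 6.07%, 5.1% and 15% of all genes tested. The comparisons share libraries and so are not independent of each other.

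**Figure D1:**
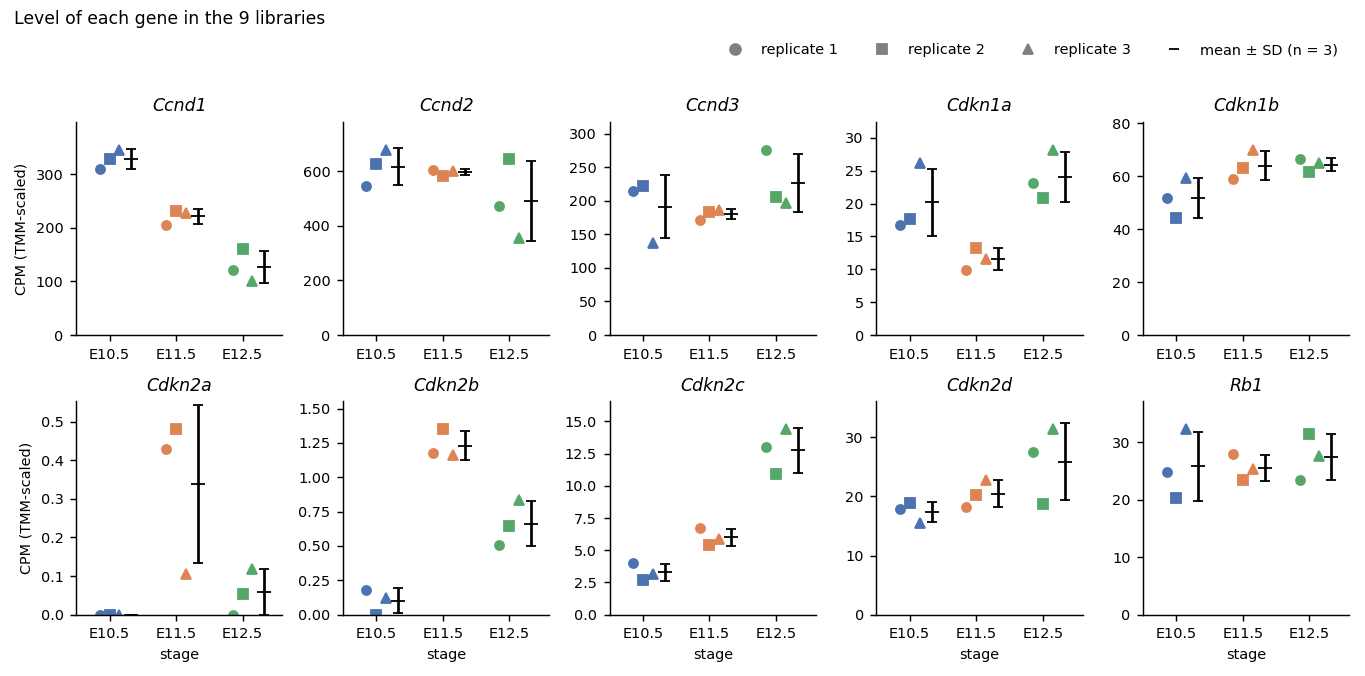
Level of each of the 10 genes in CPM on TMM-scaled library sizes (y axis, from 0) in the 3 libraries of each stage (x axis). Marker shapes are replicates, and black bars are the mean ± SD of 3 libraries. Ccnd1 went down and Cdkn2c up without overlap between neighbouring stages, whereas Cdkn1a was lowest and Cdkn2b highest at E11.5.

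**Figure D2:**
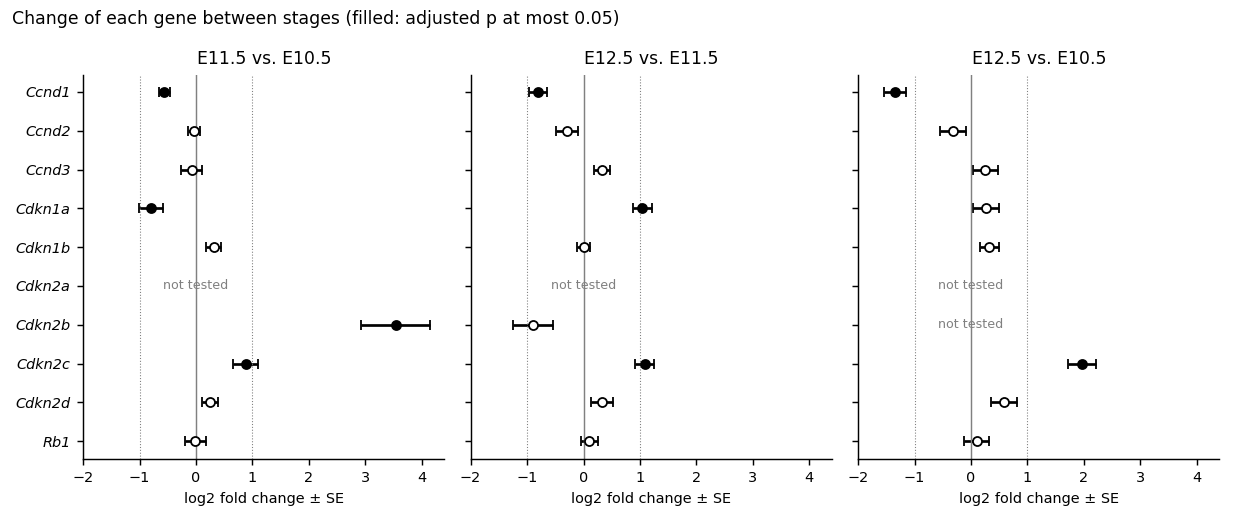
Log2 fold change (x axis, later over earlier stage) with its standard error for each gene (y axis) in the 3 comparisons. Filled points passed the test, dotted lines mark a log2 fold change of 1 in size, and Cdkn2a was not tested because of its low counts.

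Sequence upstream of the start sites is shown for the neighbours Cdkn2a and Cdkn2b, whose summed counts were highest at E11.5, and for the p53 target Cdkn1a, whose E11.5 libraries were its lowest. Cdkn2a (chr4:89274471-89294653) and Cdkn2b (chr4:89306299-89311039) lie on the minus strand of mouse chromosome 4 with 11645 bases between them. Cdkn2a has a pair of start sites, the upstream one for the transcript of p19Arf and the downstream one for p16Ink4a, and its counts sum both. The sequences run 5′ to 3′ toward the start site, are from RefSeq on GRCm38.p6, and were shortened where they entered an annotated exon. Capitals mark matches, on either strand, to an E2F-type motif (TTTNNCGC), a GC box (GGGCGG) or the p53 decamer, the repeat unit of p53 response elements.
Cdkn2b, chr4:89311040-89311282, minus strand: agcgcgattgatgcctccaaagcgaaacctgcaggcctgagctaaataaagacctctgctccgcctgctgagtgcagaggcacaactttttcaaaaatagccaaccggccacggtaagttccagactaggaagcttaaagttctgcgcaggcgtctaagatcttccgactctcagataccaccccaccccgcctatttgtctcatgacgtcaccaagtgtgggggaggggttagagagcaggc
Cdkn2a upstream start (p19Arf), chr4:89294654-89294869, minus strand: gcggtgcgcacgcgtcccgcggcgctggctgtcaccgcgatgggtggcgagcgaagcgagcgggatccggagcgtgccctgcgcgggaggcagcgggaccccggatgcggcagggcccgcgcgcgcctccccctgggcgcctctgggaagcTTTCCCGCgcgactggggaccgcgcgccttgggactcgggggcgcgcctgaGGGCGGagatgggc
Cdkn2a downstream start (p16Ink4a), chr4:89282193-89282442, minus strand: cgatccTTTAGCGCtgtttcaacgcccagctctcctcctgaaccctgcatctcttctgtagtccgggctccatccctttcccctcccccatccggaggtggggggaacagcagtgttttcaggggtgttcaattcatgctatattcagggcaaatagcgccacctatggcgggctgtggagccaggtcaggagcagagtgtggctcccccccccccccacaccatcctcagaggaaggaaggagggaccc
Cdkn1a upstream start, chr17:29090729-29090975, plus strand: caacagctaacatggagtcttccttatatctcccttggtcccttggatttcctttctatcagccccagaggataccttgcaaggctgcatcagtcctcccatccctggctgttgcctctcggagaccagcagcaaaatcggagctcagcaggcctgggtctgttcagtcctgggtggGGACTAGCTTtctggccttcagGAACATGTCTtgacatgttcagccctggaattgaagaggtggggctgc
The window before the p19Arf start held an E2F-type match 99 bases before that start and a GC box in the part shown. The window before the p16Ink4a start held an E2F-type match at its far end, 244 bases before the start, and no GC box. No match to these motifs lay in the Cdkn2b window. The window before the upstream Cdkn1a start held 2 p53 decamers, 73 and 51 bases before that start. The window before the downstream Cdkn1a start, not shown because it lies within annotated exons, held 2 GC boxes and no p53 decamer. Of all 32851 windows of 250 bases in the RefSeq table, 4.28% held the E2F-type motif, 32.7% the GC box and 7.13% the p53 decamer. RefSeq windows were found for 7 of the 10 genes, 11 windows in all, and not for Ccnd1, Ccnd2 and Rb1. The E2F-type motif was in 2 of the 11 (both of Cdkn2a), the GC box in 7 and the p53 decamer in 2 (the upstream one of Cdkn1a and that of Cdkn2d). The CCAAT box (CCAAT) was in 3 of the 11 and in 33.8% of all windows. The E-box (CACGTG) and the TATA box (TATAAA) were in none of the 11, and in 6.02% and 12.4% of all windows.

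Ccnd1 (ENSMUSG00000070348, chr7:144929931-144939925, minus strand) encodes cyclin D1, the D-type cyclin that mitogens induce most directly. Its level was 309, 329 and 346 CPM in the 3 libraries at E10.5, 205, 232 and 227 CPM at E11.5, and 121, 160 and 101 CPM at E12.5. Every library of an earlier stage lay above every library of the next, so that the 3 stages formed steps without overlap. The log2 fold change was -0.56 (SE 0.10, adjusted p = 0.0127) in E11.5 vs. E10.5. It was -0.80 (SE 0.16, adjusted p = 0.0105) in E12.5 vs. E11.5 and -1.35 (SE 0.20, adjusted p = 0.000754) in E12.5 vs. E10.5. The last of these held under all 16 alternative settings, with log2 fold changes of -1.55 to -1.21. The first fall was past the test in 13 of 16 settings (adjusted p 0.000122 to 0.0812) and was lost without any one of the 3 E11.5 libraries (adjusted p = 0.0791, 0.0517 and 0.0812 without replicates 1, 2 and 3). The second was lost without replicate 1 at E12.5 (-0.76, adjusted p = 0.0725, of a range of 6.32e-07 to 0.0725). The 2 falls were not shown to differ in size (log2 difference -0.23, SE 0.28, adjusted p = 0.792).

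Ccnd1 shares 1100 exon bases, 23.4% of its exon sequence, with LTO1 on the opposite strand. Whether counting used strand is not given in the sources used here. LTO1 had 271–428 counts per library against 1696–5665 for Ccnd1. The neuroepithelium markers (Sox1, Sox2, Sox3, Rax, Six6, Lhx2 and Pax6) moved with the first fall of Ccnd1. Their summed level was 283–386 CPM at E10.5 and 84.5–103 CPM at E11.5, all 7 fell beside 5.58% of all genes, and none was at 0 in a whole stage. From E11.5 to E12.5, while Ccnd1 fell again, the sum went from 84.5–103 to 92.9–110 CPM. Their part in the level of Ccnd1 was not tested. The genes with a profile most like that of Ccnd1 over the 9 libraries, among genes with a mean of at least 5 CPM, were Plekhh1 (Pearson r of log2 CPM 0.998), Mapk6 (0.994) and Chd1 (0.991). Plekhh1 went from 31.2 to 15.9 and 5.89 CPM in mean level over the 3 stages. The 9 points of such a correlation share their stages and libraries, and it is a description only.

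Ccnd2 (ENSMUSG00000000184, chr6:127125162-127152193, minus strand) encodes cyclin D2. It was at 545, 628 and 680 CPM at E10.5, 606, 584 and 603 CPM at E11.5, and 473, 647 and 356 CPM at E12.5. The stages overlapped, and the E12.5 libraries alone spanned nearly the whole range. Its log2 fold changes were -0.04 (SE 0.11, adjusted p = 0.836), -0.29 (SE 0.19, adjusted p = 0.334) and, over the whole period, -0.32 (SE 0.23, adjusted p = 0.337). Single E12.5 libraries moved the second value in both directions. It was -0.54 without replicate 2 (adjusted p = 0.0111, the lowest of 16 settings) and -0.11 without replicate 3 (0.648, the highest). The value for the whole period likewise became -0.57 (adjusted p = 0.0777) and -0.14 (0.69).

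Ccnd3 (ENSMUSG00000034165, chr17:47505051-47599691, plus strand) encodes cyclin D3. Its level was 214, 222 and 137 CPM at E10.5, 171, 183 and 186 CPM at E11.5, and 276, 205 and 197 CPM at E12.5. All E12.5 libraries were above all E11.5 libraries, but the log2 fold change of 0.32 (SE 0.14, adjusted p = 0.167) did not pass the test. In E11.5 vs. E10.5 the value was -0.08 (SE 0.18, adjusted p = 0.809), and without replicate 3 at E10.5, the library that stands apart, Ccnd3 was lower at E11.5 (-0.27, adjusted p = 0.00616, against up to 0.986 in other settings). Over the whole period it was 0.25 (SE 0.22, adjusted p = 0.454).

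Per length, the makeup of the D-type cyclins differed between the stages. Ccnd1 held 44.3 ± 1.2%, 35.9 ± 1.56% and 25.8 ± 1.57% of their summed FPKM at the 3 stages in turn (SD, n = 3), with no overlap between stages. The share of Ccnd2 was 41.7 ± 2.84%, 48.5 ± 1.84% and 49.2 ± 4.62%, and that of Ccnd3 was 13.9 ± 3.69%, 15.7 ± 0.321% and 25.1 ± 5.77%. The ratio of Ccnd1 to Ccnd2 in FPKM started at 1.02–1.13, dropped to 0.676–0.794 at E11.5 and ended at 0.495–0.567. Ccnd1 and Ccnd2 stood level at first, with overlapping FPKM values (64.4–72.8 and 56.9–71.7), and at E12.5 Ccnd1 (21.2–33.6 FPKM) instead overlapped with Ccnd3 (22.2–30.7 FPKM). The summed FPKM of the 3 cyclins was 155 ± 8.96, 130 ± 3.21 and 104 ± 22.1. Its E12.5 libraries spread widely, from 80.8 to 125, and all lay below those of E11.5 (126 to 132). These shares are a description and were not tested.

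**Figure D3:**
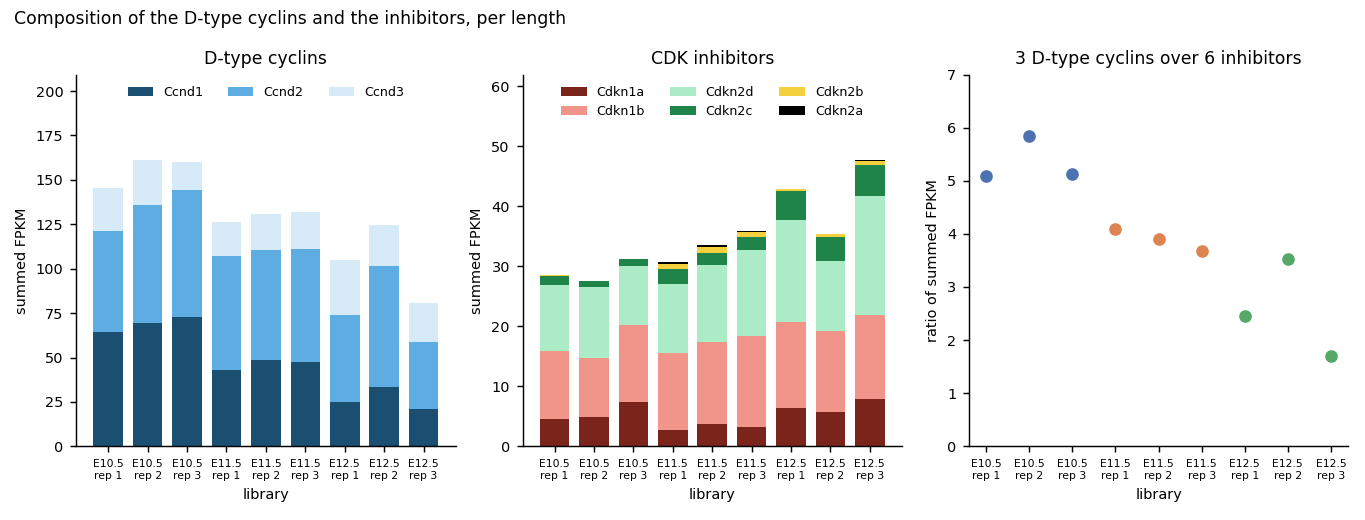
Summed FPKM (y axis) of the D-type cyclins (left) and of the 6 CDK inhibitors of the group (middle), stacked by gene for each of the 9 libraries (x axis), and the ratio of the 2 sums (right). The ratio ranged over 5.09–5.85, then 3.68–4.10 and then 1.70–3.52 from the earliest to the latest stage, and the Ccnd1 part of the left bars shrank at each stage. The 6 leave out the inhibitor gene Cdkn1c, which alone had 91.0–106, 126–136 and 185–280 FPKM. The ratio therefore does not describe cyclins against all inhibitors.

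Cdkn1a (ENSMUSG00000023067, chr17:29090976-29100727, plus strand) encodes p21, which p53 and other signals induce and which halts the cycle in G1. It was at 16.8, 17.7 and 26.1 CPM at E10.5, 9.90, 13.2 and 11.6 CPM at E11.5, and 23.1, 20.8 and 28.2 CPM at E12.5. The E11.5 libraries lay below all others, and the stages on either side overlapped. It fell in E11.5 vs. E10.5 (log2 fold change -0.80, SE 0.21, adjusted p = 0.0464) and rose in E12.5 vs. E11.5 (1.04, SE 0.17, adjusted p = 0.00297), where it was a DEG. In E12.5 vs. E10.5 it was 0.26 (SE 0.23, adjusted p = 0.448). The rise passed under all 16 alternative settings (0.90 to 1.14), while the fall passed in 10 of 16. It was lost without replicate 2 at E10.5 (adjusted p = 0.0739), without any one E11.5 library (0.189, 0.0957 and 0.168 without replicates 1, 2 and 3) and with at least 10 counts required in every library (0.0509), and the sixth loss was with the replicate number as a block. Without replicate 3 at E10.5, which was the highest of its stage, it was -0.56 (adjusted p = 0.00651). The step to E12.5 differed from the step before it by 1.85 on the log2 scale (SE 0.37, adjusted p = 0.0346). A difference between the steps was found for 2 of the 9 genes tested, this one and Cdkn2b, beside 1.18% of all genes. The genes most like Cdkn1a over the 9 libraries were Mthfsl (r = 0.974), Acot7 (0.958) and Pmm1 (0.95), and Pmm1 went from 17.8 to 10.6 and 19.1 CPM in mean level.

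Cdkn1b (ENSMUSG00000003031, chr6:134920401-134925513, plus strand) encodes p27, which restrains cyclin E-CDK2 in cells leaving the cycle. Its level was 51.8, 44.2 and 59.3 CPM at E10.5, 58.9, 63.0 and 70.0 CPM at E11.5, and 66.4, 61.6 and 64.8 CPM at E12.5. The E12.5 libraries lay above those of E10.5, but neither this difference (log2 fold change 0.32, SE 0.17, adjusted p = 0.208) nor that of E11.5 vs. E10.5 (0.31, SE 0.14, adjusted p = 0.185) passed the test. Without replicate 3 at E10.5 the E11.5 vs. E10.5 value was 0.42 (adjusted p = 0.00426, against up to 0.483 in other settings). In E12.5 vs. E11.5 the log2 fold change was 0.0 (SE 0.12). Within the pair of CIP/KIP genes Cdkn1a made up 33.1 ± 3.47%, 18.8 ± 2.05% and 32.3 ± 3.07% of the summed FPKM at the 3 stages.

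Cdkn2a (ENSMUSG00000044303) was close to the limit of detection, with counts of 0, 0 and 0 at E10.5, of 8, 10 and 2 at E11.5, and of 0, 1 and 2 in the E12.5 libraries. Reads were therefore seen in every E11.5 library and in no E10.5 library, and the gene was too low for the filter. Set against 3 counts over the whole E10.5 stage, which is what a count of 0 allows, E11.5 was 5.73-fold higher. This takes the 20 counts over the E11.5 libraries as exact, so it is not a lower limit of the change. The E12.5 to E11.5 ratio was 0.165 (95% exact interval 0.0314–0.556, counting error only). When all genes with at least 1 count were tested, the adjusted p was 0.0358 for E11.5 vs. E10.5 and 0.146 for E12.5 vs. E11.5.

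Cdkn2b (ENSMUSG00000073802), its neighbour, encodes p15, known as a target of TGF-beta. Its counts were 3, 0 and 2 at E10.5, rising to 22, 28 and 22 at E11.5, and stood at 9, 12 and 14 in the E12.5 libraries, or 0.101 ± 0.0914, 1.23 ± 0.102 and 0.663 ± 0.164 CPM. All libraries of each stage were separate from those of the others, with E11.5 highest. It rose in E11.5 vs. E10.5 (log2 fold change 3.54, SE 0.61, adjusted p = 0.0103) and was a DEG there. With only 5 counts over the E10.5 libraries the size is uncertain, and the ratio of pooled counts was 12.4 with a 95% exact interval of 5.07–39.3. The call was lost without replicate 1 at E11.5 (adjusted p = 0.0593) and without replicate 3 (0.0524), over a range of 0.000679 to 0.0593. In E12.5 vs. E11.5 the value was -0.90 (SE 0.35, adjusted p = 0.122), with a pooled ratio of 0.535 (0.346–0.811). The pair E12.5 and E10.5 was not tested because of the low counts in its 6 libraries, and its pooled ratio was 6.62 (2.58–21.7). Of the 7 alternative settings in which that pair could be tested, 4 passed and 3 did not. The log2 fold change was 2.65 in one fit on all 9 libraries (adjusted p = 0.00775, the lowest). It was 2.72 with DESeq2 (adjusted p = 0.0543), 2.08 without replicate 2 at E10.5 (0.0816) and 2.81 without replicate 1 at E12.5 (0.0576). The 2 steps differed by -4.42 on the log2 scale (SE 0.87, adjusted p = 0.0332). Genes most like it were P2ry1 (r = 0.979), Htr1b (0.977) and Slitrk6 (0.974), and Slitrk6 went from 35.2 to 80.6 and 65.9 CPM in mean level.

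Cdkn2c (ENSMUSG00000028551, chr4:109660876-109667189, minus strand) encodes p18, an INK4 inhibitor found in many differentiating tissues. It was at 3.98, 2.67 and 3.16 CPM at E10.5, 6.73, 5.43 and 5.90 CPM at E11.5, and 13.0, 10.9 and 14.4 CPM at E12.5. The stages formed 3 separate steps upward, the mirror image of Ccnd1 in order. Its log2 fold change was 0.88 (SE 0.22, adjusted p = 0.0397) in E11.5 vs. E10.5 and 1.08 (SE 0.17, adjusted p = 0.00295) in E12.5 vs. E11.5. Over the whole period it was 1.97 (SE 0.25, adjusted p = 0.000292), and in both comparisons with E12.5 the gene was a DEG. The changes to E12.5 passed the test under all 16 alternative settings (0.94 to 1.18 from E11.5, and 1.84 to 2.12 from E10.5), and the first rise in 11 of 16. That rise was lost without replicate 2 at E10.5 (adjusted p = 0.119) and without any one E11.5 library (0.164, 0.0919 and 0.143 without replicates 1, 2 and 3), and the fifth loss was with the replicate number as a block. The ratio of Ccnd1 to Cdkn2c in FPKM was 44.2, 70.2 and 62.4 in the E10.5 libraries, 17.4, 24.4 and 22 in those of E11.5, and 5.32, 8.35 and 4.01 in those of E12.5. The genes most like Cdkn2c were Creg1 (r = 0.994), Itm2b (0.994) and Apod (0.993), and Apod went from 0.861 to 3.24 and 14.5 CPM in mean level. Neuron markers summed to 165–197, 186–206 and 278–314 CPM, with 1 of 7 higher at E12.5 than at E10.5, none lower and none at 0 in a whole stage. The 1 that was higher, Stmn2 (17.5, 37.5 and 106 CPM), rose at both steps, while 1 of the 7 fell at the first step. Some other markers rose with Cdkn2c, and against Ccnd1, at both steps. Cartilage and bone markers summed to 573–998, 521–608 and 546–739 CPM, a sum held mostly by Col2a1, the type II collagen gene, which went from 688 to 402 and 377 CPM. Of the 6 tested in E12.5 vs. E10.5, 3 rose and 2 fell, with a median log2 fold change of 2.15. The 3 that rose did so at both steps, the bone factor genes Runx2 (4.44, 59.8 and 99.3 CPM) and Sp7 (1.67, 7.23 and 28.7 CPM) and the cartilage proteoglycan gene Acan (0.18, 0.738 and 10.5 CPM). Epithelium markers summed to 539–961, 562–585 and 806–890 CPM. Over the whole period 4 of 11 rose and 3 fell, with a median log2 fold change of -0.14. The basal keratin genes Krt5 (2.12, 34.5 and 151 CPM), Krt14 (16.0, 31.3 and 158 CPM) and Krt15 (2.11, 8.98 and 29.4 CPM) rose at both steps. The 3 that fell were Krt8 (111, 60.7 and 61.9 CPM), Krt18 (94.8, 46.4 and 46.6 CPM) and Cldn6 (110, 70.1 and 54.9 CPM). Twist2 (8.78, 14.9 and 49.2 CPM) of the mesenchyme markers rose at both steps too. So did the globin genes Hbb-bs (3.13, 19.1 and 78.2 CPM) and Hbb-bt (6.13, 48.9 and 82.5 CPM). Over the whole period 5 of 8 mesenchyme markers rose and 1 fell, and 4 of 11 red blood cell markers rose and 2 fell. The part of any of these cells in the levels of Cdkn2c and Ccnd1 was not tested.

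Cdkn2d (ENSMUSG00000096472, chr9:21288410-21291407, minus strand) encodes p19Ink4d, and Rb1 (ENSMUSG00000022105, chr14:73183673-73325822, minus strand) the pocket protein that the whole pathway acts on. Cdkn2d was at 17.8, 18.9 and 15.5 CPM at E10.5, 18.3, 20.3 and 22.8 CPM at E11.5, and 27.6, 18.7 and 31.4 CPM at E12.5. Its log2 fold changes of 0.24 (SE 0.14, adjusted p = 0.322), 0.33 (SE 0.19, adjusted p = 0.268) and, for E12.5 vs. E10.5, 0.58 (SE 0.23, adjusted p = 0.0857) did not pass the test. Here again single E12.5 libraries moved the values. Without replicate 2 the adjusted p was 0.0164 for E12.5 vs. E11.5 (0.51) and 0.0265 for E12.5 vs. E10.5 (0.77), and without replicate 3 it was 0.614 (0.15) and 0.266 (0.41), the highest of the settings. Rb1 was at 24.8, 20.3 and 32.3 CPM, then 28.0, 23.4 and 25.3 CPM, and then 23.4, 31.4 and 27.7 CPM. Its stages overlapped throughout, with log2 fold changes of -0.01 (SE 0.18), 0.10 (SE 0.15) and 0.10 (SE 0.22). Rb1 shares 488 exon bases, 8.11% of its exon sequence, with Rcbtb2 and 408 bases (6.78%) with Lpar6, both on the opposite strand. Rcbtb2 had 2621–4199 counts per library and Lpar6 474–894, against 349–583 for Rb1, so the level of Rb1 is uncertain if counting did not use strand.

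Tested over the 3 stages together, 4 of the 9 genes passed, namely Ccnd1, Cdkn1a, Cdkn2b and Cdkn2c, beside 28.3% of all genes. Libraries of the stages did not overlap for 4 of the 9 genes in the first step, for 5 of 9 in the second step and for 3 of 8 over the whole period, beside 36.7%, 35.3% and 42.4% of all genes. The counts shift with single libraries. Without replicate 3 at E10.5, the E11.5 vs. E10.5 comparison gave 6 genes past the test, and without replicate 1 or replicate 3 at E11.5 it gave 0. Without replicate 2 at E12.5, E12.5 vs. E11.5 gave 5.

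In order of FPKM at E10.5, Ccnd1 (68.9 ± 4.26) and Ccnd2 (65.0 ± 7.51) were followed by Ccnd3 (21.5 ± 5.24), Cdkn1b (11.3 ± 1.63), Cdkn2d (11 ± 1.07), Cdkn1a (5.63 ± 1.45), Rb1 (4.24 ± 0.999) and Cdkn2c (1.2 ± 0.236). The neighbours Ccnd1 and Ccnd2, Cdkn1b and Cdkn2d, and Cdkn1a and Rb1 overlapped between libraries. At E12.5 Ccnd2 (51.5 ± 15.4) led, Ccnd1 (26.7 ± 6.32) and Ccnd3 (25.3 ± 4.70) overlapped, and Cdkn2c (4.68 ± 0.633) had reached the range of Rb1 (3.81–5.16). Cdkn2d held most of the INK4 signal throughout, 89.5 ± 2.48%, 79.1 ± 3.25% and 75.3 ± 2.78% of the summed FPKM of the 4 INK4 genes. The share of Cdkn2c in it was 9.92 ± 2.01%, 13.7 ± 2.22% and 22.2 ± 2.25%. The summed FPKM of the 6 inhibitors went from 27.5–31.3 to 30.8–35.9 and 35.4–47.6 over the stages.

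This sum leaves out Cdkn1c, the p57 gene and the third CIP/KIP inhibitor, which is not among the 10 genes and was more abundant than all 6 together. Cdkn1c had 91.0–106, 126–136 and 185–280 FPKM in order of stage. It rose in E12.5 vs. E11.5 (log2 fold change 0.90, SE 0.16, adjusted p = 0.00498) and in E12.5 vs. E10.5 (1.29, SE 0.20, adjusted p = 0.00111). It belongs to a list of 14 kinases, partners and pocket proteins that act with the cyclins and inhibitors. In that list 1 gene rose and 1 fell in the first step, 1 rose and 2 fell in the second, and 2 rose and 4 fell over the whole period, beside 11.8%, 12.2% and 24.6% of all genes past the test in either direction. Cdk4, the main partner of the D-type cyclins, did not pass the test (309 ± 7, 272 ± 16.6 and 262 ± 44.1 FPKM), and it was far above Cdk6 (4.59 ± 0.79, 3.45 ± 0.298 and 2.90 ± 0.653 FPKM). Cdk6 fell over the whole period (-0.65, SE 0.21, adjusted p = 0.0479). Ccne1, which encodes cyclin E1 and is itself an E2F target, fell at both steps (-0.58, adjusted p = 0.0193, and -0.45, adjusted p = 0.0387). Rbl2, the gene of the pocket protein p130 of resting cells, rose in E12.5 vs. E10.5 (1.13, SE 0.21, adjusted p = 0.00323). Of the single steps, Rbl2 passed the test in the first (0.81, SE 0.15, adjusted p = 0.0131) and not in the second (0.31, adjusted p = 0.21).

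Downstream of RB, more genes fell than rose. None of the 10 E2F and dimerization partner genes rose in any comparison, and 2 of them fell in the first step, 3 in the second and 6 over the whole period, where 5.58%, 4.57% and 10.5% of all genes fell. E2f5, a repressor E2F, fell most over the whole period (-1.12, SE 0.20, adjusted p = 0.00252). E2f7 fell by 0.86 (SE 0.20, adjusted p = 0.00936) and Tfdp2 by 0.75 (SE 0.18, adjusted p = 0.0126) on the log2 scale, while E2f1 did not pass the test (-0.24, SE 0.21, adjusted p = 0.43). Of 18 S phase genes driven by E2F, 3, 7 and 12 fell and none rose, beside the same shares of all genes. Their median log2 fold changes were -0.32, -0.39 and -0.76, where those of all genes tested were -0.032, 0.019 and -0.006. Rrm2, a subunit of ribonucleotide reductase, was the one DEG (-1.17, SE 0.17, adjusted p = 0.00066), and the helicase gene Mcm5 (-0.80, SE 0.16, adjusted p = 0.00515) and the licensing factor Cdt1 (-0.81, SE 0.16, adjusted p = 0.00417) fell as well.

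**Figure D4:**
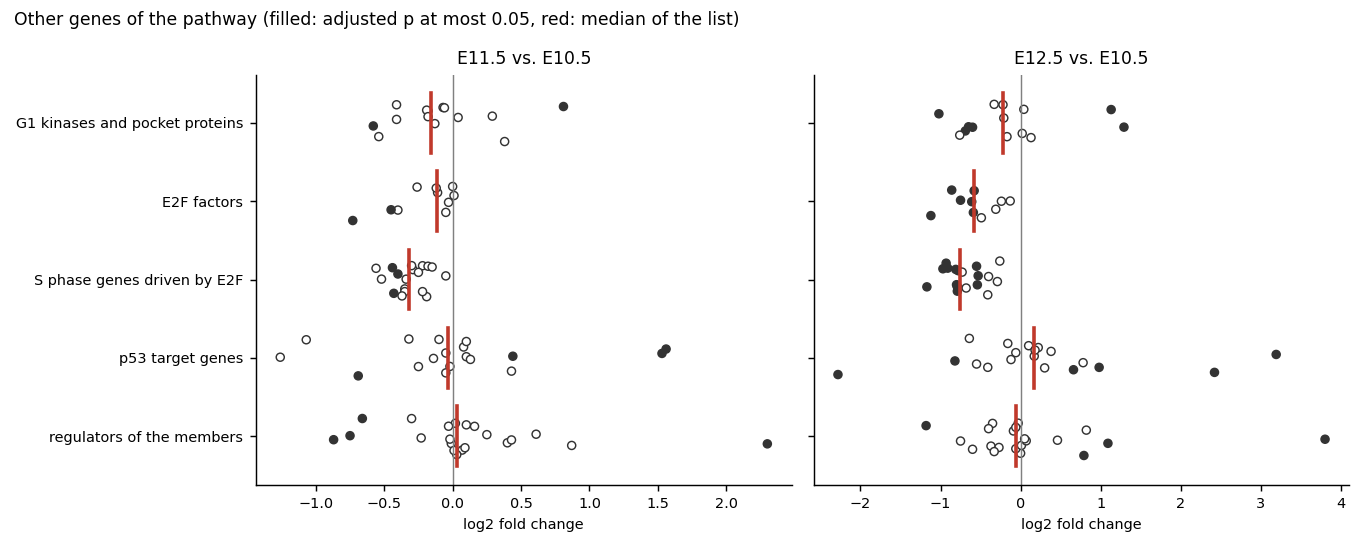
Log2 fold change (x axis) of each tested gene of 5 lists of genes that act with the cyclins and inhibitors (y axis, points spread vertically for sight), in E11.5 vs. E10.5 (left) and E12.5 vs. E10.5 (right, on a wider axis). Filled points passed the test and red lines are list medians. The S phase genes lay to the left of 0 in both panels, with a median of -0.76 on the right.

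Upstream, the list of 20 other p53 target genes had calls in both directions. In E11.5 vs. E10.5, where Cdkn1a fell, 3 of 18 tested rose and 1 fell. In E12.5 vs. E11.5, where Cdkn1a rose, 4 of 19 rose and 1 fell. Over the whole period 4 of 19 rose and 2 fell. Beside these, 11.8%, 12.2% and 24.6% of all genes passed the test. The gene that fell with Cdkn1a in the first step was Aen (-0.69, SE 0.11, adjusted p = 0.00796). It did not pass the test in the second step (-0.14, adjusted p = 0.511). Pmaip1, the gene of the death protein Noxa, took the opposite course to Cdkn1a and rose by 1.56 (SE 0.20, adjusted p = 0.00372) before it fell by 1.40 (SE 0.17, adjusted p = 0.00046) on the log2 scale. Phlda3, an inhibitor of Akt, rose in E12.5 vs. E11.5 (1.06, SE 0.19, adjusted p = 0.00485), and the kinase gene Plk2 rose at both steps (1.53 and 0.88) and by 2.42 in all (SE 0.17, adjusted p = 5.31e-06). Mdm2 (-0.02 and -0.15) and Trp53 itself (-0.23 and -0.11) did not pass the test. Of 21 genes known to regulate the cyclins and inhibitors, 1, 1 and 3 rose and 3, 2 and 1 fell in the 3 comparisons, beside 11.8%, 12.2% and 24.6% of all genes past the test. Klf4, a factor that can act on Cdkn1a, rose at both steps, from 3.42 ± 0.496 to 16.8 ± 3.92 and 47.5 ± 8.41 CPM, for a log2 fold change of 3.80 (SE 0.23, adjusted p = 2.38e-06) over the whole period. Mycn, which can drive D-type cyclin genes, fell from 137 ± 16.1 to 86.3 ± 8.22 and 60.0 ± 3.42 CPM (-1.18, SE 0.17, adjusted p = 0.000599). Among the Polycomb genes known to hold the Cdkn2a locus silent, Bmi1 (0.07 and -0.35) and Ezh2 (-0.02 and -0.33) did not pass the test, Cbx7 fell in E11.5 vs. E10.5 (-0.87, SE 0.21, adjusted p = 0.0358), Cbx2 fell in E12.5 vs. E11.5 (-0.63, SE 0.14, adjusted p = 0.0144) and Cbx8 rose over the whole period (1.09, SE 0.22, adjusted p = 0.0049).

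Markers of other cell types were measured as a background to these values, and their part in them was not tested. Red blood cell markers summed to 2940–3970, 4730–5150 and 4450–5720 CPM from the earliest to the latest stage. Macrophage markers summed to 22.6–33.5, 28.2–33.8 and 37.1–40.9 CPM, and muscle markers to 1.42–3.60, 1.01–2.42 and 3.23–3.89 CPM. Endothelium markers were at 310–322 and 276–332 CPM at the later stages. No marker was at 0 in a whole stage. Among the mesenchyme markers 5 of 8 rose in E11.5 vs. E10.5 and none fell, beside 6.19% of all genes that rose.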

How the data were processed

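RNA-seq was carried out on 9 libraries, 3 at each of 3 stages. Per the labels and the study's methods, libraries were made with an Illumina TruSeq RNA kit, and reads were mapped to GRCm38/mm10 with HISAT2 2.0.5 and counted with featureCounts. The authors deposited whole-number counts per gene without normalization, which were tested here. The deposited FPKM values, made by the authors from counts and gene length, were used to compare genes with each other. They also served to describe sums, shares, ratios and some single genes by stage, and were not tested. The deposited stage means of normalized counts (a signal averaged by the authors), the authors' log2 fold changes and the authors' p-values with adjusted p-values were not used.

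A separate fit on 6 libraries was made for each 2 stages in R 4.3.3 with edgeR 4.0.16 (filterByExpr, TMM, quasi-likelihood test, Benjamini-Hochberg over all genes tested), which was checked on simulated counts. The pairs held 15708, 15808 and 15899 tested genes. All 9 libraries entered the 3-stage test and the test of the difference between steps, with 16375 genes. Standard errors are the log2 fold change over the square root of F. With 3 libraries against 3, an exact permutation test cannot give a p-value below 0.1. Whether pools shared litters is not stated, so p-values measure the spread between these pools. Total counts were 16581009–20836804 per library, and 30199 genes had a count. Intervals of low counts are 95% exact intervals and floors are 3 counts over a stage. Reads carry no molecular identifiers, so both cover counting error only. Coordinates are those of the table and matched GENCODE vM21 for all 10 genes.

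Some marker genes are not reported here. The genes and gene lists were chosen with earlier results of these data known. Named genes are the 10 genes, genes of the lists past the test with a log2 fold change of at least 0.58 in size or counted in a list, and the 3 most correlated genes of each gene past the 3-stage test. A few list genes that did not pass (Cdk4, E2f1, Mdm2, Trp53, Bmi1 and Ezh2) were named after their values were seen. Alternatives were DESeq2 (1.42.0) and its size factors, upper quartile scaling, other count filters, one fit on 9 libraries, the replicate number as a block, removal of the GC trend (lowess, span 0.3), globin genes left out, each library left out and an adjusted p-value of at most 0.01.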

Additional observations from a re-analysis of the deposited data

Results flagged for a closer look

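Cdkn1a and Cdkn2b met the test for a change that differed between the 2 steps. For Cdkn1a the log2 fold change from E11.5 to E12.5 exceeded that from E10.5 to E11.5 by 1.85 (SE 0.37, edgeR adjusted p = 0.0346), since all 3 E11.5 libraries were the lowest of the 9. For Cdkn2b the difference was -4.42 (SE 0.87, adjusted p = 0.0332), since all 3 E11.5 libraries were the highest of the 9. Each call was lost with single libraries left out. Without any one E11.5 library, or without replicate 1 or 3 at E12.5, the adjusted p lay between 0.07 and 0.246 for Cdkn1a and between 0.0622 and 0.182 for Cdkn2b. With the GC trend removed it was 0.0551 for Cdkn1a.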

How the results depend on the processing

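The direction of every change past the test was kept under all alternatives that were run for it. Over the single genes and the shares, 523 values of alternatives kept direction and side of the threshold, 28 lost significance, 7 gained it and 26 changed sign, the last all for genes that did not pass the test. Among the 523 are the shares of the D-type cyclins, which have no threshold. Their only alternative, CPM divided by gene length, could not change a share within a library. The count of genes past the test in E11.5 vs. E10.5 (4) was 2 with at least 10 counts in every library, 2 with the replicate block and 0 at the 0.01 level of the adjusted p-value, and leaving out 1 library gave 0 to 6. Its DEG count (1) was 2 with all genes of at least 1 count, 0 at 10 counts or more in each library (a filter that removes Cdkn2b) and 0 at 0.01, and 0 to 2 with 1 library left out. In E12.5 vs. E11.5 leaving out 1 library gave 2 to 5 genes past the test and 0 to 3 DEGs, the 0 without replicate 3 at E12.5, where Cdkn1a (0.90) and Cdkn2c (0.98) fell short of the fold-change limit. The DEG count (2) was 0 with the GC trend removed and 0 with the replicate block and the GC trend removed, where Cdkn1a and Cdkn2c stayed past the test with log2 fold changes under 1. One fit on all 9 libraries gave 4 genes past the test in E12.5 vs. E10.5. The count of differences between the steps (2) was 1 with at least 10 counts in every library, 1 with the GC trend removed, 0 at 0.01, and 0 to 2 with 1 library left out.

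Sign changes were all near 0. With 1 library left out, the log2 fold change in E11.5 vs. E10.5 ranged from -0.13 to 0.033 for Ccnd2, from -0.27 to 0.038 for Ccnd3 and from -0.16 to 0.19 for Rb1, and in the second step from -0.067 to 0.055 for Cdkn1b and from -0.012 to 0.21 for Rb1. For Rb1 it was -0.052 to 0.30 in E12.5 vs. E10.5 and -0.12 to 0.27 for the difference between steps, and for Cdkn2d that difference was -0.066 to 0.30. Rb1 in E11.5 vs. E10.5 was 0.0083 with upper quartile scaling, 0.0017 with all genes of at least 1 count, 0.014 with the replicate block, 0.011 with the GC trend removed and 0.013 with both. Cdkn1b in E12.5 vs. E11.5 was -0.011 with DESeq2 size factors, -0.02 with all genes of at least 1 count and -0.017 with DESeq2. The difference between steps for Cdkn2d was -0.0036 with the GC trend removed and -0.014 with the replicate block as well. The causes were not tested.

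Deviations of same-numbered libraries from their stage means had correlations of -0.151 to 0.22 over genes. Differently numbered libraries were not set beside them, so these values cannot show whether the numbers mark a pairing. With the replicate block, Cdkn1a (adjusted p = 0.06) and Cdkn2c (0.0606) missed the threshold in E11.5 vs. E10.5. Depth limits Cdkn2a and Cdkn2b, whose E10.5 libraries hold 0 and 5 counts in all.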

Other observations

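At E12.5 replicates 2 and 3 lay at opposite ends of their stage for Ccnd1, Ccnd2, Cdkn1a, Cdkn2c and Cdkn2d. For these genes the SD over libraries was larger at E12.5 than at E11.5, while it was smaller for Cdkn1b (2.48 against 5.58 CPM) and Cdkn2a (0.0597 against 0.204 CPM). Replicate 2 had the highest Ccnd1 (160 CPM), Ccnd2 (647 CPM) and Rb1 (31.4 CPM) of its stage and the lowest Cdkn1a (20.8 CPM), Cdkn2c (10.9 CPM) and Cdkn2d (18.7 CPM). Replicate 3 had the lowest Ccnd1 (101 CPM) and Ccnd2 (356 CPM) and the highest Cdkn1a (28.2 CPM), Cdkn2c (14.4 CPM) and Cdkn2d (31.4 CPM). The ratio of the summed FPKM of the 3 cyclins to that of the 6 inhibitors, which leave out Cdkn1c, was 2.45, 3.52 and 1.70 in replicates 1, 2 and 3, against 4.10, 3.9 and 3.68 at E11.5. The S phase genes did not follow this order, with summed levels of 3064, 3129 and 3287 CPM in replicates 1, 2 and 3.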
